A study of Mus musculus with 9 samples.

Results

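Muscle stem cells (MuSCs) that had just been taken from mouse muscle were compared with MuSCs that had grown in a dish and had kept a low level of a MyoD reporter. The comparison used 6 of the 9 RNA sequencing libraries of the series, 3 of each group, and covered every gene of the deposited table, 25655 in all, of which 12614 could be tested. The first group, called QSCs, held quiescent MuSCs from the leg muscles of male Pax7-YFP mice of 15 to 16 weeks, whose 2 *Pax7* alleles both carried YFP, and was never cultured. The second group held MyoD-tdTomato low cells: MuSCs from hindlimb muscle of MyoD-KI mice, with tdTomato knocked in at 1 *Myod1* allele (MyoD KI/+, C57BL/6J background), bound to anti-integrin α7 beads and grown on gelatin in growth medium with serum for 5 days. These cells were then detached with trypsin, stained for α7-integrin and sorted by flow cytometry on dim tdTomato. Isolations of this kind used mice of 10 to 16 weeks and, unless stated, both sexes. Culture, mouse line, isolation and possibly sex therefore changed together between the groups, and their parts in a difference cannot be told apart. The remaining 3 libraries held the MyoD-tdTomato high cells of the same cultures, which entered the fit and are given beside some genes. Libraries of 1 group are technical replicates by the wording of the study's methods, so p-values measure only the spread between these libraries, which may be technical.

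Adult MuSCs lie under the basal lamina of the muscle fibre, express the transcription factor Pax7 and stay out of the cell cycle. Injury or culture wakes them: they enlarge, enter the cell cycle, express MyoD, and either differentiate through myogenin into fusing myocytes or lose MyoD again and return to a reserve of Pax7-positive cells. Isolation from tissue is itself a stimulus, and dissociated MuSCs are known for rapid induction of FOS, JUN and EGR family genes within the time that isolation takes. Cultured cells with low MyoD are studied as the stem-like fraction of a culture, for which the freshly isolated cell is the natural reference.

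The libraries of QSCs were shallower and noisier than those of the cultured cells. Total gene counts were 18077031, 7514633 and 15763343 in QSCs libraries 1 to 3 and lay between 24471782 and 25767904 in MyoD-tdTomato low cells. Genes took 69.3%, 37.1% and 64.3% of the mapped reads in QSCs, against 88.0 to 89.0% in MyoD-tdTomato low cells, where mapped totals were worked back from the deposited RPKM on the assumption that it divides by all mapped reads. QSCs library 2 thus stood apart, and it also held 22547 counts in 1601 odorant, vomeronasal and taste receptor genes. The other QSCs libraries held 10159 and 12161 and the MyoD-tdTomato low libraries 500 to 611. These genes were taken as a measure of background, and whether some of them are expressed in muscle cells was not tested. Spread evenly over exons, that background would give a gene with 4 kb of exon 0.481, 2.28 and 0.701 CPM (the count scaled by the library's total and its TMM factor) in QSCs and at most 0.0151 CPM in MyoD-tdTomato low cells. QSCs values of a few CPM are therefore close to it. Replicate libraries correlated across genes at 0.901 to 0.940 in QSCs and at 0.982 to 0.990 in MyoD-tdTomato low cells. The Y-linked gene *Eif2s3y* was at 4.41, 27.2 and 28.8 CPM in the 3 MyoD-tdTomato low libraries, where library 1 stood apart, and at 25.3, 31.6 and 43.2 CPM in QSCs. For *Ddx3y*, also Y-linked, the lowest QSCs library was 4.38 times the highest MyoD-tdTomato low one, whereas *Uty* and *Kdm5d* overlapped. The 4 sex-linked genes present summed to 209 to 242 CPM in QSCs and to 13.3 to 97.1 CPM in MyoD-tdTomato low cells. *Pax7*, the defining gene of MuSCs, was at 364, 274 and 306 CPM in QSCs against 151, 147 and 141 CPM in MyoD-tdTomato low cells, so both groups carried it, with no overlap and a higher level on counts in QSCs. The *Pax7* alleles carried YFP in QSCs only, and the effect of this on the level was not tested. The study reported no significant difference in *Pax7* between these groups, on length-scaled values (TPM).

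Of the 12614 genes tested, 6191 were called, which is 49.1%: 3343 (26.5%) were higher and 2848 (22.6%) lower in QSCs. The call required more than a 1.5-fold difference and an adjusted p (Benjamini-Hochberg) under 0.01 in edgeR's quasi-likelihood test. Log2 ratios are QSCs over MyoD-tdTomato low cells, from that fit. The difference was lopsided in size: 1570 genes were over 4-fold higher and 644 over 4-fold lower in QSCs, and beyond 16-fold the numbers were 459 and 48. The receptor background was far higher in QSCs, where it adds to weak genes and limits how much lower a gene can be. Median exon length was 4256 bases for genes called higher, 3312 for those called lower and 3569 for those not called. The part of the background in the lopsided sizes was not tested. In 6163 of the called genes no QSCs library overlapped a MyoD-tdTomato low library. Among all 12614 genes tested this held for 8469, so lack of overlap was common among genes at large. On TPM, the authors' length-scaled values, which sum to the same total in every library, the split turned to 1579 higher and 6013 lower (20.8% higher, against 54.0% on counts), and the median log2 difference of all genes moved from 0.075 to -0.67. Mitochondrially encoded RNA took 22.7 to 35.1% of TPM in QSCs against 9.71 to 11.01% in MyoD-tdTomato low cells. With every library centred on its median gene, the TPM split was 3868 higher and 2898 lower (57.2% higher). Directions below are relative to the bulk of genes, and where the uncentred TPM counts turn a list over, they are given with it. Counts of called members in a list stand beside the 26.5% higher and 22.6% lower of all genes tested. Members called on both sides are thus what genes at large showed. Of the genes named in what follows as higher in QSCs, *Pax7*, *Heyl*, *Cav1*, *Tcf4*, *Lama2*, *Jak1*, *Pttg1*, *Rbl2*, *Slc2a1*, *Sqstm1*, *Ccn1* and *Ccn2* were not called on uncentred TPM, where *Pax7* differed by 0.29 and *Slc2a1* by 0.0093 log2. *Notch3* was not called there at the smaller of the pseudocounts, 1 and 0.1. Of those named as not called, *Col5a1*, *Itga7*, *Itgb1*, *Cdon*, *Myf5*, *Myod1*, *Clock*, *Eya4*, *Cdkn1a*, *Rb1*, *Hes1* and *Rpl41* were called lower in QSCs there.

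**Figure D1:**
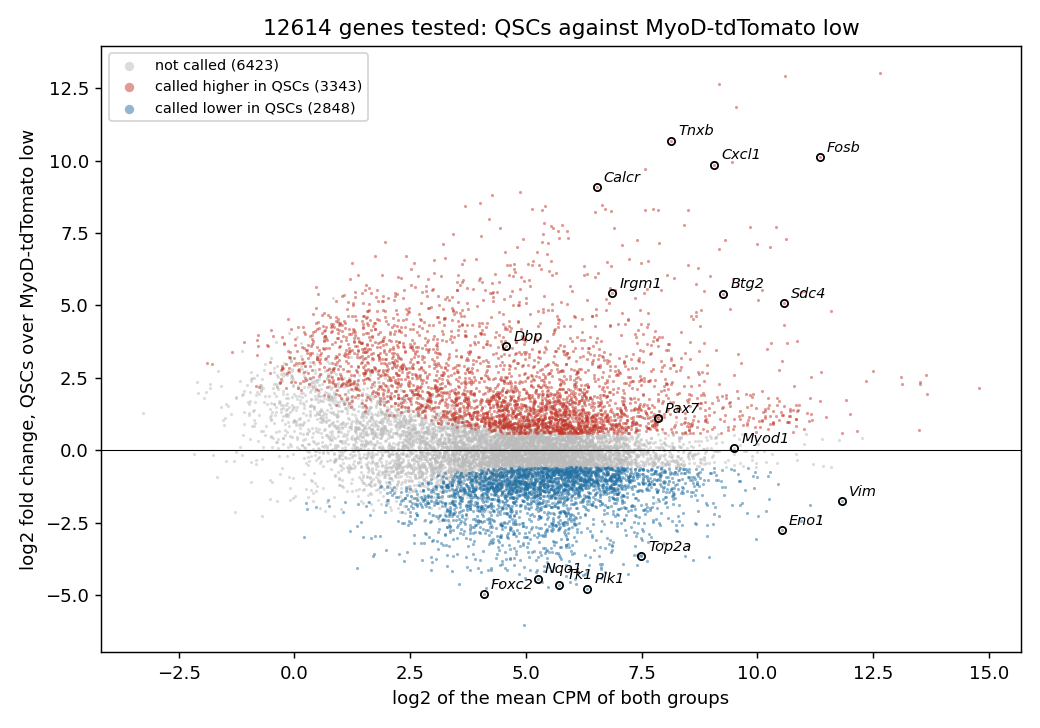
Each point is 1 of the 12614 genes tested, with the log2 of its mean CPM over both groups on the horizontal axis and the log2 fold change, QSCs over MyoD-tdTomato low cells, on the vertical axis; the 3343 genes called higher are red, the 2848 called lower blue and those not called grey. The red genes reach much farther from 0 than the blue ones, with 459 against 48 genes beyond 16-fold; on uncentred TPM the split was 1579 higher and 6013 lower. The part of the receptor background, which was higher in QSCs, in this reach was not tested.

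Markers of several other cell types were called higher in QSCs. All 15 tested endothelial markers were called higher in QSCs, against 26.5% of all genes tested, the 20 on the list summing to 862 to 1665 CPM in QSCs and 116 to 157 CPM in MyoD-tdTomato low cells, and no member was at 0 throughout either group. *Pecam1*, an adhesion protein of endothelium, was at 124, 40.4 and 60.7 CPM in QSCs against 2.84, 4.34 and 3.57 CPM in MyoD-tdTomato low cells. Haemoglobin RNA *Hbb-bs* was at 118, 122 and 368 CPM in QSCs and had 0 counts in every MyoD-tdTomato low library, and the 6 erythroid markers summed to 356 to 1099.8 CPM in QSCs and to at most 0.213 CPM in MyoD-tdTomato low cells, 3 of them being at 0 in all MyoD-tdTomato low libraries. Of the other lists, 5 of 6 tested Schwann cell markers, 4 of 5 tenocyte markers, 5 of 8 fibroblast markers and 6 of 9 pericyte markers were called higher in QSCs. On the tenocyte and pericyte lists, 1 marker each was called lower. Mature myofibre markers counted 5 of 14 higher and myeloid markers 4 of 12. Those shares, 35.7% and 33.3%, were not far above the 26.5% of all genes tested. The Schwann cell count was 3 without MyoD-tdTomato low library 1 or 2, and the myeloid count was 2 without QSCs library 1 or without MyoD-tdTomato low library 1 or 2. Their sums were 563 to 716 against 67.6 to 104 CPM for Schwann cells, 478 to 509 against 81.2 to 83.6 CPM for tenocytes and 2605 to 3399.7 against 740.0 to 1101 CPM for fibroblasts, QSCs first. In the same order they were 3809.5 to 4427 against 1819 to 3093 CPM for pericytes, 183 to 273 against 40.4 to 74.7 CPM for myeloid cells and 672 to 1676 against 799.6 to 2719 CPM for myofibres, the last overlapping. The 12 lymphocyte markers (1 tested) summed to 6.48 to 29.5 against 0.202 to 0.355 CPM and the 8 neutrophil markers to 9.88 to 33.1 against at most 0.142 CPM. In bulk RNA, fewer cells of a type and less RNA per cell cannot be told apart, and the part of these cells in each result that follows was not tested. From here on, 3 values before and 3 after "against" are QSCs libraries 1 to 3 and MyoD-tdTomato low libraries 1 to 3, and a mean ± SD is over 3 libraries, QSCs first.

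Both extremes had recognisable members. Among the 15 largest differences in favour of QSCs were the matrix glycoprotein tenascin-X (*Tnxb*, 10.68 log2), the neutrophil chemokine *Cxcl1* (9.85), the stress transcription factor *Atf3* (9.95), the leucine-rich matrix protein *Prelp* (8.31), the lipid transporter *Abca8a* (8.31), the small GTPase *Rhoh* (8.46) and the transcription factor *Creb5* (8.32). *Clmn*, which encodes the membrane protein calmin, was at 396, 399 and 356 against 0.284, 0.569 and 0.505 CPM. The lowest QSCs library was 626 times the highest cultured one (log2 ratio 9.71 ± 0.31 SE, adjusted p = 7.32e-09). *Acsm2* and *Tmem233* also ranked there, but both were far higher in QSCs library 2 than in the other QSCs libraries, at 12.2, 63.3 and 21.2 and 22.02, 119 and 69.5 CPM. In favour of MyoD-tdTomato low cells stood the mitotic kinesin *Kif4* (-6.02 log2), the forkhead factor *Foxc2* (-4.96), the homeobox factor *Prrx2* (-4.63), neuritin (*Nrn1*, -4.54), the collagen prolyl hydroxylase *P4ha3* (-4.48) and the quinone reductase *Nqo1* (-4.44). *Foxc2* was at 1.09, 0.729 and 1.24 against 31.7, 41.5 and 26.1 CPM. All QSCs libraries were low for it (log2 ratio -4.96 ± 0.35 SE, adjusted p = 7.97e-07).

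**Figure D2:**
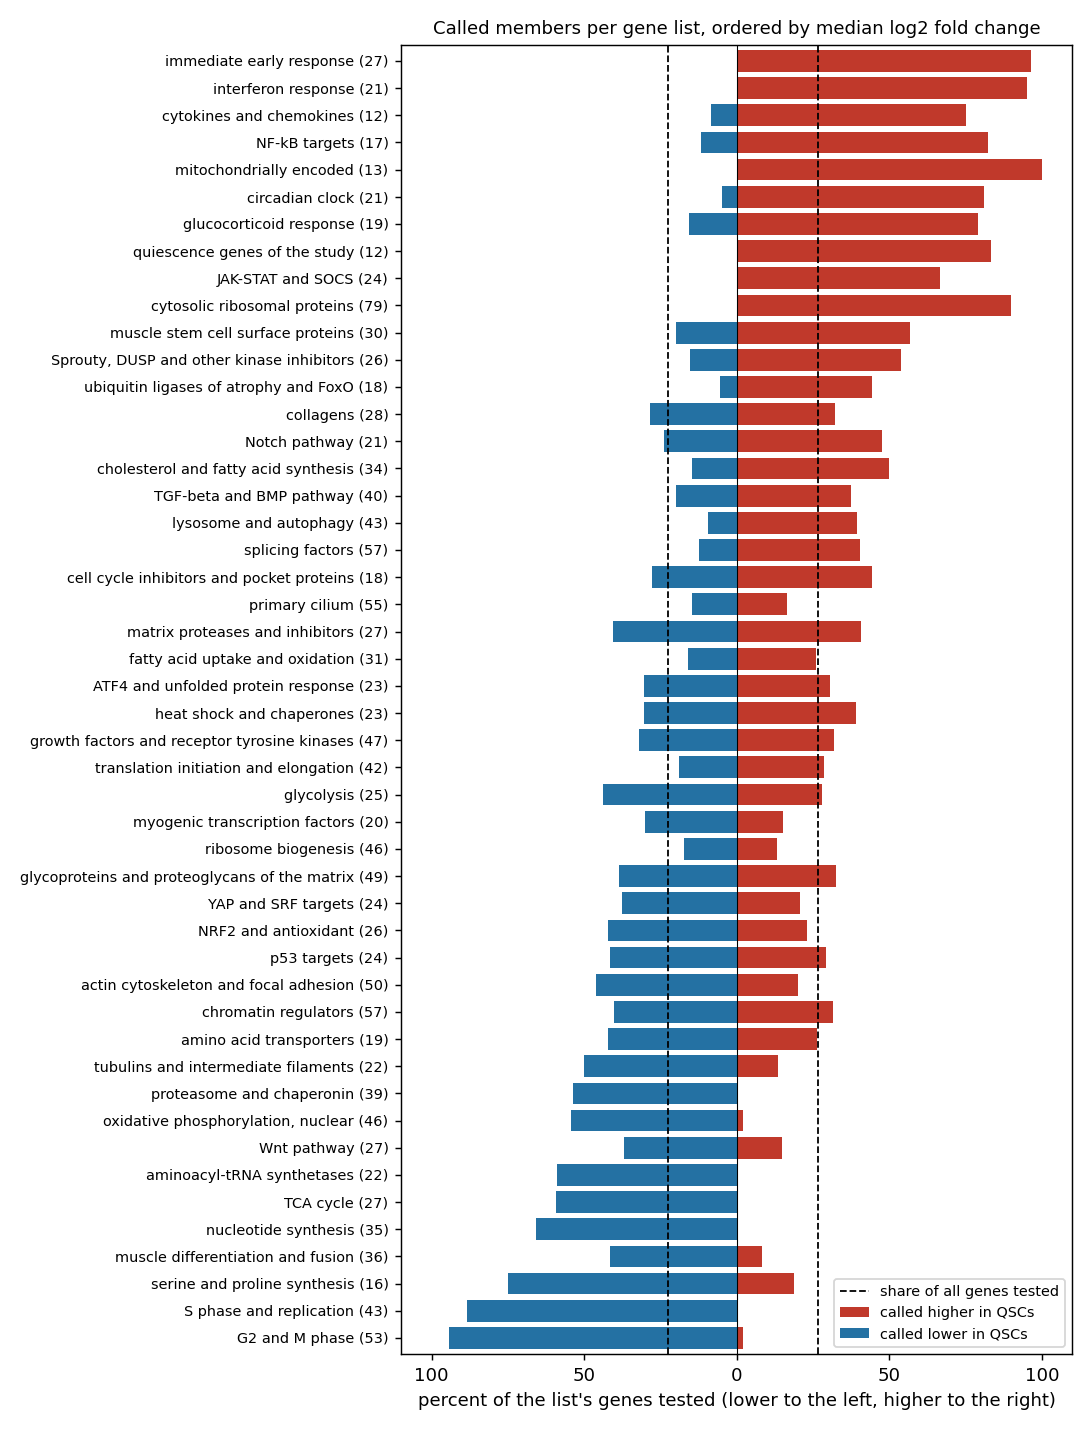
For each gene list with at least 10 tested members (number in brackets), markers of other cells left out, the bar to the right is the percent of members called higher in QSCs and the bar to the left the percent called lower; dashed lines mark the shares of all genes tested, 26.5% and 22.6%, and lists are ordered by median log2 fold change. Immediate early and interferon genes stand at the top and G2 and M phase genes at the bottom; on uncentred TPM the balance of several middle lists, such as splicing factors and lysosome genes, turned over.

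The genes the study follows as quiescence genes were mostly higher in the fresh cells. Of 12 such genes, 10 were called higher in QSCs, with a median log2 fold change of 1.53; on uncentred TPM 6 were higher and 1 lower. The list was taken from the study of these samples and is not independent evidence of its direction. *Notch3*, a Notch receptor, was at 1031, 804 and 854 against 450.2, 224 and 292 CPM. The lowest QSCs library was 1.79 times the highest cultured one (log2 ratio 1.48 ± 0.23 SE, adjusted p = 2.02e-04), and the MyoD-tdTomato high cells were lower still at 169.6, 143 and 133 CPM. The Notch effector *Heyl* was at 347, 231 and 302 against 149.7, 52.4 and 93.3 CPM, with the same order (log2 ratio 1.58 ± 0.32 SE, adjusted p = 0.00146). *Adgrf5*, an adhesion G protein-coupled receptor that endothelium also expresses, was at 93.7, 74.7 and 71.4 against 2.49, 3.45 and 2.26 CPM, with no overlap (log2 ratio 4.87 ± 0.24 SE, adjusted p = 8.07e-08). β-arrestin 1 (*Arrb1*) was at 59.6 ± 1.29 against 9.81 ± 0.951 CPM (log2 ratio 2.60 ± 0.19 SE, adjusted p = 7.69e-07). *Notch1* and *Col5a1* were the members not called, at 108 ± 24.1 against 81.3 ± 16.8 CPM and 263 ± 21.1 against 309 ± 88.6 CPM.

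Surface proteins by which MuSCs are recognised divided into a fresh and a cultured set. Of 30 tested, 17 were called higher and 6 lower in QSCs (median 1.08). Syndecan-4 (*Sdc4*, chr2:164266167-164285807 on GRCm39), a heparan sulphate proteoglycan, was at 3441, 2666 and 2810.2 against 88.6, 92.2 and 84.7 CPM. The lowest QSCs library was 28.9 times the highest cultured one (log2 ratio 5.07 ± 0.15 SE, adjusted p = 6.20e-09). Its relative syndecan-3 (*Sdc3*, chr4:130519848-130553630) went the other way, at 42.7, 94.9 and 68.3 against 553, 714 and 697 CPM (log2 ratio -3.26 ± 0.27 SE, adjusted p = 2.65e-06). *Chrdl2* (chr7:99655379-99683935), which encodes a secreted BMP-binding protein rather than a surface protein, was at 266, 185 and 236 against 1.14, 0.640 and 0.471 CPM. Here the gap between the nearest libraries was 162-fold (log2 ratio 8.25 ± 0.34 SE, adjusted p = 2.57e-08). *Tenm4*, a teneurin, was at 101 ± 14.9 against 4.48 ± 2.33 CPM (log2 ratio 4.49 ± 0.38 SE, adjusted p = 3.03e-06), the tetraspanin *Cd82* at 775 ± 85.1 against 149 ± 44.8 CPM (log2 ratio 2.37 ± 0.21 SE, adjusted p = 4.18e-06) and the adhesion receptor *Vcam1* at 345 ± 60.97 against 64.9 ± 3.70 CPM (log2 ratio 2.41 ± 0.14 SE, adjusted p = 1.76e-07).

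Growth factor and matrix receptors on that list followed the same division. The FGF receptors *Fgfr1* and *Fgfr4* were at 949 ± 80.3 against 259 ± 26.2 CPM and 726 ± 110.1 against 194 ± 63.2 CPM, a like difference for both (log2 1.88 and 1.90). *Egfr*, the EGF receptor, was at 234, 159.7 and 184 against 30.2, 19.1 and 21.9 CPM, and the MyoD-tdTomato high cells held 9.34, 8.53 and 7.23 CPM. The dystroglycan gene *Dag1*, whose product ties the cell to laminin, was at 879 ± 105 against 263 ± 58.3 CPM (log2 ratio 1.74 ± 0.20 SE, adjusted p = 2.97e-05). Lower in QSCs were N-cadherin (*Cdh2*, 40.8 ± 13.4 against 284 ± 13.3 CPM, log2 -2.81), the integrin subunits *Itga6* (15.98 ± 2.02 against 64.8 ± 19.4 CPM, log2 -2.03) and *Itga5* (69.3 ± 16.8 against 146 ± 9.54 CPM, log2 -1.07), and *Ncam1* (181 ± 4.90 against 419 ± 50.4 CPM, log2 -1.21). *Itga7*, the integrin used to isolate the cultured cells, was at 326, 326 and 412 against 481, 364 and 442 CPM, the groups overlapping. *Itgb1* and *Cdon* were not called either, at log2 -0.17 and -0.14. On uncentred TPM the list counted 13 higher and 11 lower. *Cd34*, *Esam* and *Cav1*, also called higher (log2 7.26, 4.30 and 1.36), are expressed by endothelium as well, whose markers are given above.

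*Myf5* and *Myod1* were not called on counts, whereas *Myog* was. *Myf5*, a myogenic determination factor, was at 127, 144 and 121 against 133, 154 and 146 CPM, with overlap. *Myod1* was at 802, 534 and 897 against 700.2, 729 and 699.7 CPM, also overlapping, and was not called on counts (log2 0.07, adjusted p = 0.72 in edgeR); on uncentred TPM the value was -0.76 with either pseudocount. The tdTomato reporter sorted the cultured cells for this gene, and the MyoD-tdTomato high cells held 1486, 1446 and 1456 CPM. Myogenin (*Myog*), which drives differentiation, was at 56.9, 79.9 and 83.1 against 427, 134 and 349 CPM. QSCs lay below every cultured library (log2 ratio -2.05 ± 0.38 SE, adjusted p = 8.01e-04), while the MyoD-tdTomato high cells reached 2953, 1539.8 and 2347 CPM. Of the 20 myogenic factors tested, 3 were called higher and 6 lower in QSCs (5 higher without QSCs library 2).

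Among the partners, musculin (*Msc*), a repressor of the MyoD family, was at 83.03, 103 and 90.3 against 1.28, 0.426 and 1.28 CPM. It was all but absent from every cultured library (log2 ratio 6.52 ± 0.33 SE, adjusted p = 8.35e-08). The E protein *Tcf4* was higher in QSCs at 306 ± 7.81 against 142 ± 15.3 CPM (log2 1.11), whereas the E protein *Tcf3* was lower at 66.6 ± 5.68 against 165 ± 4.51 CPM (log2 -1.31). The homeobox factor *Six4* was lower at 16.8 ± 6.89 against 55.2 ± 1.01 CPM (log2 -1.74), and so were its cofactor *Eya3* (31.04 ± 4.93 against 57.3 ± 3.94 CPM) and the TEA-domain factor *Tead4* (4.21 ± 2.44 against 25.3 ± 2.57 CPM). *Eya4* and *Nfix* were not called, at log2 -0.095 and 0.24. Genes of differentiation and fusion were called lower in QSCs for 15 of 36 (median -1.47), which was 25 without MyoD-tdTomato low library 2 and at least 12 without any other library. The acetylcholine receptor subunit *Chrna1* was at 117, 182 and 166 against 921, 857 and 931 CPM, and the sarcomere scaffold nebulin (*Neb*) at 49.3, 98.4 and 98.6 against 352, 281 and 347 CPM, both without overlap (log2 -2.55 and -1.998). The adult fast myosin *Myh4*, a marker of mature fibres, was higher at 31.1, 168 and 158 against 1.46, 0.355 and 0.404 CPM.

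**Figure D3:**
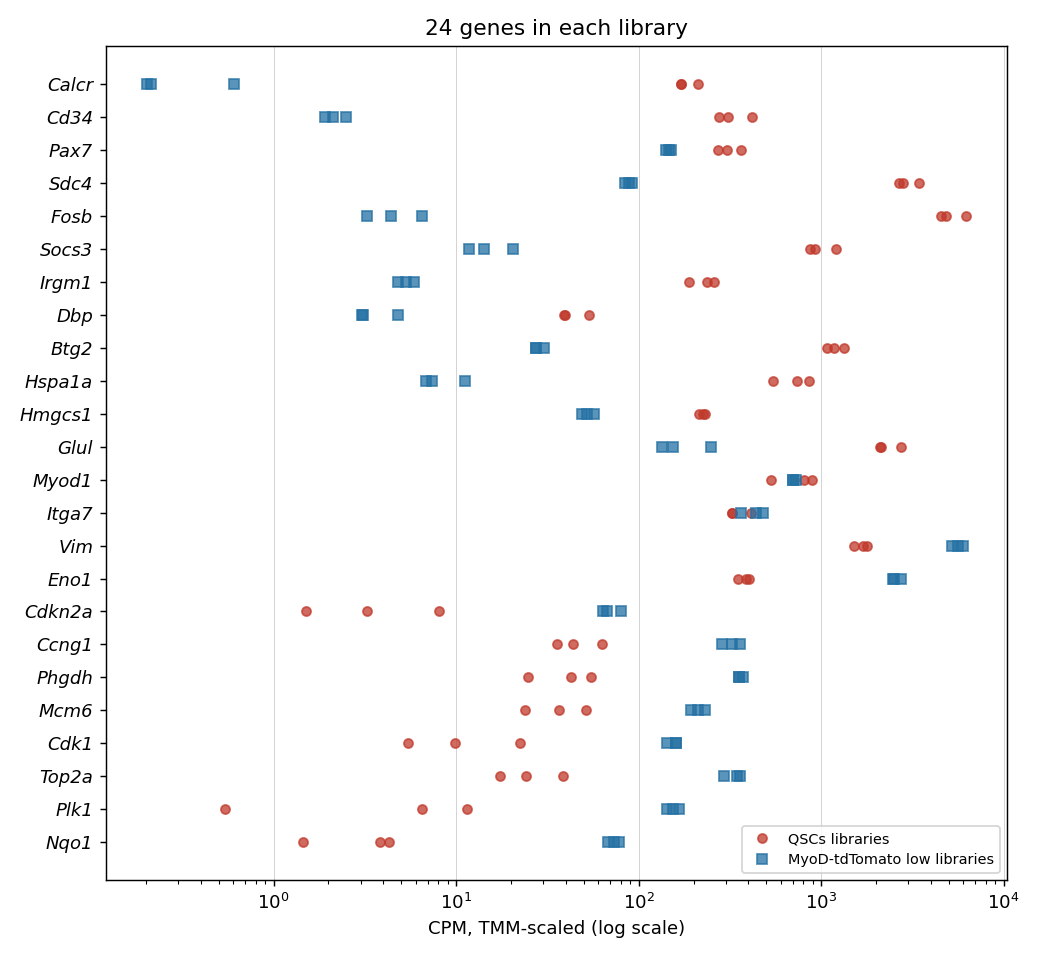
CPM of 24 genes in each of the 3 QSCs (red circles) and 3 MyoD-tdTomato low libraries (blue squares), on a log axis. The groups are apart for all of the genes shown except *Myod1* and *Itga7*, whose libraries intermingle.

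Early response genes marked the fresh cells. Of 27 immediate early genes tested, 26 were called higher in QSCs, the median log2 fold change was 4.31, and together they took 3.30, 2.79 and 2.67% of all counts in QSCs against 0.133, 0.116 and 0.114% in MyoD-tdTomato low cells. With 3 libraries against 3, the exact permutation test of that share gave p = 0.1, the smallest it allows. *Atf3* was at 1488, 1357 and 1374 against 1.21, 0.853 and 2.15 CPM, so that the nearest libraries lay 629.8-fold apart (log2 ratio 9.95 ± 0.38 SE, adjusted p = 1.70e-08). *Jund* and *Junb*, subunits of AP-1, were at 3845 ± 648 against 86.95 ± 15.98 CPM and 2926 ± 546 against 147 ± 16.4 CPM (log2 5.47 and 4.31). *Egr1*, a zinc finger factor, was at 4952, 3461 and 3633 against 129.8, 61.6 and 75.99 CPM. *Zfp36*, whose product degrades such short-lived messages, was at 3744, 2725 and 2864 against 27.8, 14.96 and 16.7 CPM, with no overlap (log2 ratio 7.30 ± 0.28 SE, adjusted p = 1.70e-08).

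Inflammatory signalling genes were higher alongside them. Of 17 NF-kB targets tested, 14 were called higher and 2 lower (median 3.35). The inhibitor *Nfkbia*, an early NF-kB target, was at 627, 390.2 and 417 against 48.5, 42.6 and 40.6 CPM, and its nuclear relative *Nfkbiz* at 473, 274 and 347 against 8.35, 8.56 and 8.55 CPM. The nearest libraries of the groups lay 8.04-fold and 32.0-fold apart (log2 3.44 and 5.43). The apoptosis inhibitor *Birc3* was at 269 ± 54.2 against 1.96 ± 0.382 CPM (log2 ratio 7.10 ± 0.29 SE, adjusted p = 2.49e-08). In contrast, the kinase gene *Ripk2* and *Tnfaip2* were lower in QSCs, at 8.72 ± 2.498 against 39.7 ± 8.60 CPM and 25.1 ± 9.97 against 99.8 ± 13.5 CPM. Of 12 cytokine genes tested, 9 were called higher, such as *Cxcl1* at 1375, 946 and 885 against 1.28, 0.924 and 1.246 CPM, *Ccl2* at 65.5 ± 27.004 against 2.54 ± 0.752 CPM and *Ccl7* at 31.4 ± 4.96 against 1.78 ± 0.447 CPM. *Csf1*, which supports macrophages, was the member called lower in QSCs, at 101, 123 and 103 against 784, 972 and 812 CPM (log2 ratio -2.98 ± 0.17 SE, adjusted p = 1.99e-07), joined by 1 more without QSCs library 2.

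Genes of JAK-STAT signalling were higher in QSCs as well. Of 24 tested members, 16 were called higher in QSCs (median 1.21). The shared receptor chain gp130 (*Il6st*) was at 569 ± 139.5 against 166 ± 10.9 CPM, the kinase *Jak1* at 234 ± 25.8 against 102 ± 1.99 CPM and the transcription factor *Stat3* at 910.1, 679.6 and 746 against 89.8, 56.7 and 71.1 CPM. Their log2 fold changes were 1.78, 1.20 and 3.42. The feedback inhibitor *Socs3*, a STAT3 target, was at 1199.5, 869 and 931 against 20.6, 11.8 and 14.3 CPM. The lowest QSCs library was 42.2 times the highest cultured one (log2 ratio 6.01 ± 0.26 SE, adjusted p = 3.70e-08), and the kinase gene *Pim1* was at 477 ± 85.95 against 10.2 ± 2.44 CPM (log2 ratio 5.54 ± 0.33 SE, adjusted p = 2.26e-07).

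Chaperone genes lay on both sides. Of 23 tested, 9 were called higher and 7 lower in QSCs, a balance that read 7 and 13 on uncentred TPM. On counts these were 39.1% and 30.4%, beside 26.5% and 22.6% of all genes tested. The stress-inducible HSP70 genes *Hspa1a* and *Hspa1b*, close copies whose reads can be shared, were at 857, 547 and 742 against 11.3, 6.82 and 7.34 CPM and 817, 605 and 818 against 34.7, 33.2 and 28.9 CPM. The nearest libraries lay 48.5-fold and 17.5-fold apart (log2 ratio 6.40 ± 0.39 SE, adjusted p = 2.56e-07 and log2 ratio 4.53 ± 0.16 SE, adjusted p = 1.02e-08); *Hspa1a* was chosen for naming after its values were seen. The co-chaperone *Bag3* was at 651 ± 155 against 185 ± 13.8 CPM and the small heat shock protein *Hspb1* at 677 ± 102 against 260.1 ± 51.7 CPM, likewise higher (log2 1.82 and 1.38). The mitochondrial chaperones *Hspd1* and *Hspa9* were lower at 239 ± 12.8 against 557 ± 86.3 CPM and 377 ± 12.8 against 649 ± 52.9 CPM (log2 -1.22 and -0.78), as was *Stip1*, the HSP70-HSP90 organising protein, at 127 ± 18.4 against 319 ± 23.4 CPM (log2 -1.32).

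Genes of the unfolded protein response also lay on both sides. The transcription factors *Atf4* and *Xbp1* were higher in QSCs at 1017 ± 89.2 against 270.2 ± 4.22 CPM and 439 ± 71.03 against 90.5 ± 9.05 CPM (log2 1.91 and 2.28), with the phosphatase subunit *Ppp1r15a* at 943, 657 and 776 against 35.97, 29.9 and 29.4 CPM and the chaperone BiP (*Hspa5*) at 4031, 3518 and 4133 against 665, 669 and 670.2 CPM. Asparagine synthetase (*Asns*), a target of ATF4, was instead at 19.5, 11.96 and 11.8 against 109.7, 101 and 106 CPM, below every cultured library (log2 ratio -2.85 ± 0.21 SE, adjusted p = 1.10e-06). The disulphide isomerases *Pdia4* and *Pdia6* and calnexin (*Canx*) were lower as well (log2 -1.61, -0.95 and -0.78). In all, 7 of 23 tested members were called higher and 7 lower, against 6 and 12 on uncentred TPM. On counts each share was 30.4%, beside 26.5% higher and 22.6% lower of all genes tested.

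Interferon response genes were a further group of the fresh cells. Of 21 tested, 20 were called higher in QSCs (median 3.55), and the list took 0.191, 0.199 and 0.159% of counts in QSCs and 0.0320, 0.0299 and 0.0286% in MyoD-tdTomato low cells. The guanylate-binding protein *Gbp2* was at 93.4, 89.5 and 77.01 against 0.924, 1.07 and 0.404 CPM and the immunity-related GTPase *Igtp* at 38.6, 65.6 and 55.6 against 0.746, 0.569 and 0.909 CPM. Both were near 0 in culture (log2 ratio 6.76 ± 0.31 SE, adjusted p = 5.10e-08 and log2 ratio 6.15 ± 0.33 SE, adjusted p = 1.25e-07). The transcription factor *Irf1* was at 244, 208 and 189 against 10.7, 9.31 and 11.6 CPM, and *Irf9*, the DNA-binding subunit of the interferon-activated STAT complex, at 142, 129.9 and 114 against 5.40, 4.48 and 6.03 CPM, neither overlapping (log2 4.34 and 4.60). β2-microglobulin (*B2m*), the light chain of MHC class I, was at 433 ± 21.9 against 85.8 ± 1.62 CPM and the antiviral membrane protein *Ifitm3* at 529 ± 59.96 against 79.3 ± 11.6 CPM. Endothelial and myeloid cells express these genes too, and their part in the difference was not tested.

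The upstream sequences of 3 of these GTPase genes are shown because they carry the element through which interferon-activated factors act. The interferon-stimulated response element was searched by its core, TTTCNNTTTC, on both strands of the 250 bases before each start; 13 of 28 promoters of the list (46.4%) held it, against 2.98% of all 32851 mouse promoters of RefSeq on GRCm38.p6. The 120 bases before each start are printed 5′ to 3′ along the gene, with the core or its reverse complement in capitals. A match describes the letters only. *Irgm1*, whose libraries held 236, 259 and 190.0 against 5.86, 5.29 and 4.78 CPM, has 2 overlapping matches (chr11:48871421-48871540, minus strand); *Igtp* (chr11:58199436-58199555, plus strand) and *Gbp2* (chr3:142620543-142620662, plus strand) have 1 each.
Irgm1: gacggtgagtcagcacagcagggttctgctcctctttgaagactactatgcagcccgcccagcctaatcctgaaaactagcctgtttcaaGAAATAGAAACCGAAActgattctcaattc
Igtp: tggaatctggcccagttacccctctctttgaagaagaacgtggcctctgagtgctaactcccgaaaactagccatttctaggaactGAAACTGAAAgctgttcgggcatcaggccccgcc
Gbp2: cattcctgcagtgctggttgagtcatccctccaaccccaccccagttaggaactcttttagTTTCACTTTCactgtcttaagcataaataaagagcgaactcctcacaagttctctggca

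Output and repressor genes of the circadian clock were higher in QSCs, while *Clock* itself was not called. Of 21 clock genes tested, 17 were called higher and 1 lower in QSCs (median 2.12). The nuclear receptors *Nr1d1* and *Nr1d2*, repressors of the loop, were at 197, 161 and 208 against 18.1, 21.2 and 15.3 CPM and 252, 183 and 262 against 22.5, 27.9 and 25.8 CPM. The nearest libraries lay 7.59-fold and 6.55-fold apart (log2 ratio 3.37 ± 0.17 SE, adjusted p = 7.28e-08 and log2 ratio 3.19 ± 0.16 SE, adjusted p = 9.36e-08). The opposing receptor *Rora* was at 165, 199.6 and 135 against 8.99, 4.44 and 6.57 CPM, the cryptochrome *Cry2* at 98.2, 69.998 and 106 against 8.53, 7.78 and 9.12 CPM and the output factor *Dbp* at 39.5, 53.7 and 39.1 against 4.83, 3.09 and 3.06 CPM. None of these overlapped (log2 4.64, 3.43 and 3.58). The period genes *Per1*, *Per2* and *Per3* were at 274 ± 60.7 against 63.3 ± 11.6 CPM, 64.9 ± 20.8 against 14.3 ± 2.72 CPM and 17.7 ± 6.77 against 4.53 ± 0.478 CPM (log2 2.12, 2.18 and 1.97).

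The 2 related repressors *Bhlhe40* and *Bhlhe41* moved in opposite directions. *Bhlhe40* was at 479, 333 and 311 against 19.3, 18.4 and 20.9 CPM and *Bhlhe41* at 17.5, 10.4 and 13.4 against 84.4, 78.8 and 85.9 CPM. QSCs were the higher group for the first (log2 ratio 4.26 ± 0.17 SE, adjusted p = 2.38e-08) and the lower for the second (log2 ratio -2.57 ± 0.17 SE, adjusted p = 4.56e-07). *Npas2*, a paralogue of CLOCK, was at 25.8, 23.9 and 17.2 against 0.569, 0.355 and 0.505 CPM (log2 ratio 5.53 ± 0.40 SE, adjusted p = 9.46e-07). *Clock* itself was at 83.2, 76.4 and 76.8 against 69.4, 80.5 and 80.9 CPM, overlapping and not called, with -0.71 and -0.75 on uncentred TPM at the larger and smaller pseudocount. Its partner *Arntl* was at 27.9 ± 7.73 against 20.6 ± 0.725 CPM (log2 0.45, not called). The time of day of each isolation is not given in the sources used here. Among 25 promoters of clock genes, 6 held the E-box CACGTG, which both strands read alike, a share of 24% against 6.02% of all promoters.

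**Figure D4:**
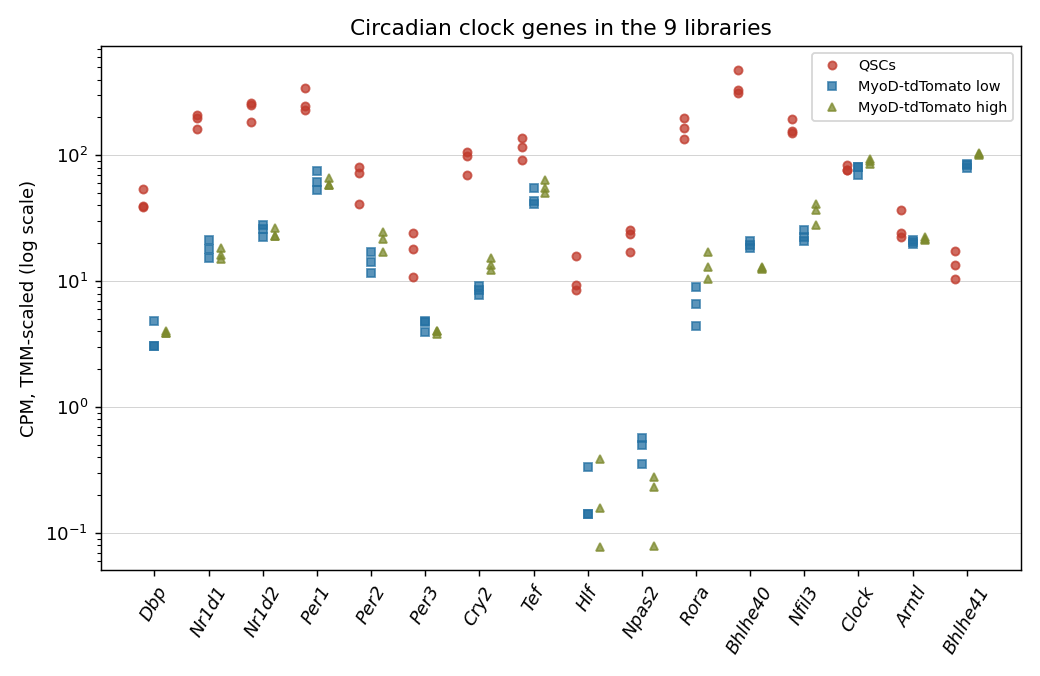
CPM of 16 circadian clock genes, on a log axis, in the 3 libraries each of QSCs (red circles), MyoD-tdTomato low cells (blue squares) and MyoD-tdTomato high cells (green triangles). QSCs libraries lie above both cultured groups for all but *Clock* and *Arntl*, which were not called, and *Bhlhe41*, which is lower in QSCs.

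Most genes of the glucocorticoid-responsive list were higher in the fresh cells, while the classical targets *Fkbp5* and *Tsc22d3* were among those lower. Of 19 tested, 15 were called higher and 3 lower in QSCs (median 2.12). The median is the same value as that of the clock list, since the lists share members, so they are not separate patterns. The metallothioneins *Mt1* and *Mt2*, metal-binding proteins, were at 3589.9, 2712 and 4054 against 299, 247 and 220.2 CPM and 6361, 5086 and 6474 against 298, 168 and 169 CPM. The nearest libraries lay 9.06-fold and 17.1-fold apart (log2 ratio 3.76 ± 0.19 SE, adjusted p = 8.42e-08 and log2 ratio 4.82 ± 0.249 SE, adjusted p = 9.74e-08). The Krüppel-like factor *Klf9* was at 635 ± 46.8 against 62.3 ± 14.5 CPM, the kinase *Sgk1* at 448 ± 50.2 against 58.2 ± 8.60 CPM, and *Errfi1*, which restrains the EGF receptor, at 2974 ± 367 against 229.6 ± 43.6 CPM (log2 3.35, 2.95 and 3.70). *Fkbp5*, which limits the glucocorticoid receptor, was instead at 41.9, 32.7 and 29.7 against 239.8, 169 and 177 CPM, and the leucine zipper gene *Tsc22d3* at 41.04, 43.2 and 35.8 against 171, 87.98 and 106 CPM. MyoD-tdTomato low cells were the higher group for both (log2 ratio -2.49 ± 0.18 SE, adjusted p = 9.13e-07 and log2 ratio -1.60 ± 0.246 SE, adjusted p = 2.05e-04).

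Cell division genes were the reverse, low in the fresh cells and high in culture. Of 53 genes of G2 and M phase tested, 50 were called lower in QSCs (median -3.62), and of 43 S phase genes 38 (median -1.91). The mitotic list took 0.0582, 0.0975 and 0.0686% of counts in QSCs and 0.637, 0.731 and 0.713% in MyoD-tdTomato low cells. *Cdk1*, the kinase that starts mitosis, was at 9.82, 22.5 and 5.48 against 143, 160.4 and 160.1 CPM, and its cyclin *Ccnb1* at 4.02, 27.6 and 5.14 against 168, 203 and 187 CPM. QSCs library 2 was the highest QSCs library for both and still lay 6.38-fold and 6.10-fold below the lowest cultured library (log2 ratio -3.68 ± 0.38 SE, adjusted p = 1.19e-05 and log2 ratio -4.04 ± 0.57 SE, adjusted p = 1.18e-04). *Cdc20*, which activates the anaphase-promoting complex, was at 2.999, 13.6 and 16.7 against 196, 207 and 195 CPM; these 3 were chosen for naming after their values were seen. The kinase *Plk1* was at 0.545, 11.5 and 6.47 against 142, 167 and 154 CPM and the replication factor *Mcm10* at 1.36, 3.94 and 0.581 against 35.5, 47.05 and 42.96 CPM. Of the helicase subunits, *Mcm6* was at 37.4 ± 14.04 against 212 ± 19.9 CPM and *Mcm4*, with a smaller difference, at 87.9 ± 6.67 against 156 ± 20.02 CPM (log2 -2.52 and -0.83). Securin (*Pttg1*), which holds back the separation of chromatids, was the 1 mitotic gene called higher in QSCs, at 35.3, 28.9 and 34.02 against 14.7, 12.7 and 13.2 CPM (log2 ratio 1.28 ± 0.17 SE, adjusted p = 6.27e-05). The MyoD-tdTomato high cells held 124, 148 and 145 CPM of *Cdk1*.

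The upstream stretches of 3 mitotic genes are shown because promoters of this class are known for CCAAT boxes, bound by NF-Y, and for the cell cycle homology region, TTTGAA. On both strands of the 250 bases before the start, CCAAT stood in 35 of 48 promoters of the list (72.9%) against 33.8% of all promoters, and TTTGAA in 17 of 48 (35.4%) against 15.99%. Matches are in capitals, in either orientation, in the 120 bases before the start on GRCm38.p6 (RefSeq). *Cdc20* (chr4:118437344-118437463, minus strand) holds 2 CCAAT matches and 1 TTTGAA match, *Cdk1* (chr10:69352913-69353032, minus strand) 2 of each, and the topoisomerase gene *Top2a* (chr11:99024190-99024309, minus strand), at 24.3, 38.4 and 17.4 against 292, 359 and 346 CPM, 3 and 1.
Cdc20: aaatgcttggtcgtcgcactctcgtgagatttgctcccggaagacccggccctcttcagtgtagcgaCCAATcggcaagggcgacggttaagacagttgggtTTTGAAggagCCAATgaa
Cdk1: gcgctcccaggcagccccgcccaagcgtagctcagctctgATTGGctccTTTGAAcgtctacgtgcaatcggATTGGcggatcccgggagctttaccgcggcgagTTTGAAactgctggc
Top2a: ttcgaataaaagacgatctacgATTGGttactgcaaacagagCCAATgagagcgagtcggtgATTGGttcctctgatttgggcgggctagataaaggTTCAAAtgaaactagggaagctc

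Inhibitors of the cell cycle lay on both sides. Of 18 tested, 8 were called higher and 5 lower in QSCs, and 3 and 9 on uncentred TPM. Of the INK4 genes 3 were lower: *Cdkn2a*, which encodes p16 and ARF, was at 1.4996, 8.02 and 3.24 against 80.2, 67.3 and 64.004 CPM, *Cdkn2b* at 3.80 ± 1.02 against 21.9 ± 2.54 CPM and *Cdkn2c* at 19.8 ± 5.93 against 54.6 ± 5.22 CPM, while *Cdkn2d* was not called (log2 0.32). No QSCs library came near the cultured ones for *Cdkn2a* (log2 ratio -4.19 ± 0.43 SE, adjusted p = 1.09e-05). *Cdkn1a*, which encodes p21, was at 350.0, 282 and 264 against 403, 312 and 361 CPM, overlapping and not called, while the MyoD-tdTomato high cells held 1348, 861 and 1112 CPM. The anti-proliferative genes *Btg1* and *Btg2* were at 1126, 864 and 1024 against 103, 88.2 and 85.5 CPM and 1342, 1078 and 1179 against 30.4, 27.4 and 27.4 CPM, with the nearest libraries 8.39-fold and 35.5-fold apart (log2 3.45 and 5.40). The pocket protein gene *Rbl2* was higher at 45.99 ± 4.25 against 25.1 ± 1.28 CPM (log2 0.87), and *Rb1* was not called at 34.7 ± 1.62 against 36.7 ± 8.22 CPM.

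Targets of p53 did likewise. The apoptosis and repair genes *Bax* and *Aen*, cyclin G1 (*Ccng1*), *Phlda3* and *Zmat3* were lower in QSCs, with *Phlda3*, an inhibitor of AKT, at 13.1, 35.1 and 27.6 against 353, 301 and 293 CPM and *Ccng1* at 35.6, 63.3 and 43.98 against 285, 360.0 and 325 CPM. Neither overlapped (log2 -3.67 and -2.77). The death receptor *Fas* at 98.2, 79.5 and 95.8 against 3.98, 2.70 and 2.83 CPM, the growth arrest gene *Gadd45a* at 511 ± 3.59 against 56.1 ± 21.6 CPM and the polo-like kinases *Plk2* and *Plk3* at 294 ± 58.4 against 41.2 ± 2.91 CPM and 90.8 ± 15.5 against 11.9 ± 0.770 CPM were higher (log2 4.85, 3.19, 2.83 and 2.94). In all, 7 of 24 tested targets were called higher (29.2%) and 10 lower (41.7%), beside 26.5% and 22.6% of all genes tested. Of 57 chromatin genes, 18 were called higher and 23 lower, and 8 and 37 on uncentred TPM. The demethylase gene *Kdm6b*, which removes methyl groups from H3K27, was at 885, 501 and 706 against 60.6, 46.1 and 52.2 CPM and its H3K4 counterpart *Kdm5a* at 132 ± 16.2 against 36.6 ± 1.17 CPM (log2 3.72 and 1.85). The architectural protein *Hmga1*, the histone variant gene *H2az1*, the remodeller *Smarca4* and the arginine methyltransferase *Prmt1* were lower (log2 -2.45, -1.72, -1.82 and -1.31).

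Many genes that make building blocks were called lower in QSCs. Of 35 nucleotide synthesis genes tested, 23 were called lower (median -1.04). Ribonucleotide reductase, which makes deoxyribonucleotides, showed it in both subunits, *Rrm2* at 55.4, 100.5 and 63.5 against 865, 1023 and 898 CPM and *Rrm1* at 75.1 ± 11.1 against 308 ± 27.1 CPM. Thymidine kinase *Tk1* was at 2.04, 5.10 and 5.39 against 99.01, 104 and 100.2 CPM, the highest QSCs library being 18.4-fold below the lowest cultured one (log2 ratio -4.64 ± 0.295 SE, adjusted p = 3.60e-07). *Cad* and *Atic*, enzymes of pyrimidine and purine synthesis, were lower by less (log2 -1.97 and -1.55). Of 16 genes of serine, glycine and proline metabolism, 12 were called lower and 3 higher. *Phgdh*, the first enzyme of serine synthesis, was at 24.8, 54.8 and 42.5 against 371, 354 and 357 CPM (log2 ratio -3.16 ± 0.23 SE, adjusted p = 1.02e-06), and *Psat1* and *Shmt2* were lower as well (log2 -2.04 and -2.06). Those higher in QSCs included *Prodh*, which breaks down proline, at 30.5 ± 10.9 against 6.96 ± 1.45 CPM, and glutamine synthetase, *Glul*, at 2753, 2094 and 2141 against 248, 134 and 155 CPM. The lowest QSCs library held 8.45 times the *Glul* of the highest cultured one (log2 ratio 3.70 ± 0.254 SE, adjusted p = 6.19e-07).

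Genes for charging and importing amino acids differed between themselves. Of 22 aminoacyl-tRNA synthetases, 13 were called lower in QSCs (median -0.79), with *Vars* at 95.9 ± 4.04 against 337 ± 24.8 CPM and *Gars* at 100.4 ± 11.9 against 259 ± 2.44 CPM. The taurine transporter *Slc6a6* was lower at 174, 217 and 180.3 against 905, 829 and 898 CPM (log2 ratio -2.21 ± 0.11 SE, adjusted p = 8.43e-08), and the glutamine transporter *Slc38a2* higher at 1007, 730.3 and 881 against 220.2, 256 and 252 CPM (log2 ratio 1.85 ± 0.13 SE, adjusted p = 6.45e-07). The leucine transporter *Slc43a1* was higher at 79.1 ± 15.6 against 10.1 ± 2.07 CPM and its relative *Slc43a2* lower at 66.7 ± 15.6 against 150.2 ± 28.1 CPM. Over the 19 transporters tested, 5 were called higher and 8 lower.

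Antioxidant genes lay on both sides, with more of them lower in QSCs. Of 26 tested, 6 were called higher (23.1%) and 11 lower (42.3%), beside 26.5% and 22.6% of all genes tested. *Nqo1*, a standard NRF2 target, was at 3.82, 1.46 and 4.32 against 78.4, 67.9 and 73.2 CPM (log2 ratio -4.44 ± 0.29 SE, adjusted p = 4.27e-07), and *Gclc*, which limits glutathione synthesis, at 73.1, 80.1 and 84.3 against 377, 315 and 308 CPM (log2 ratio -2.07 ± 0.13 SE, adjusted p = 2.59e-07). The glutathione peroxidase *Gpx1* was lower too (log2 -1.64). Higher in QSCs were the secreted selenoproteins *Gpx3*, at 5408, 3949 and 4428 against 1159, 463 and 514 CPM, and *Selenop*, at 376, 322 and 323 against 27.4, 9.84 and 12.5 CPM. Neither overlapped (log2 ratio 2.69 ± 0.36 SE, adjusted p = 7.36e-05 and log2 ratio 4.36 ± 0.41 SE, adjusted p = 6.40e-06). *Srxn1*, sulfiredoxin, is also an NRF2 target and was higher, at 729 ± 76.8 against 111 ± 15.7 CPM (log2 2.71).

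Of 79 cytosolic ribosomal protein genes, 71 were called higher in QSCs (median 1.18), which became 19 higher and 2 lower on uncentred TPM, while their median stayed 1.02 above that of all genes. They took 11.01, 9.50 and 12.95% of counts in QSCs and 7.66, 7.19 and 7.004% in MyoD-tdTomato low cells. *Rps4x* was at 3709, 2843 and 3916 against 1076, 994 and 957 CPM (log2 ratio 1.79 ± 0.13 SE, adjusted p = 1.12e-06), and *Rpl41* was not called at 1642 ± 388 against 2065 ± 165 CPM. Many of these genes have near-identical pseudogenes, so their counts are less certain. Translation factors stood at 12 higher and 8 lower of 42 (4 and 23 on uncentred TPM), shares near the 26.5% and 22.6% of all genes tested. The start codon factors *Eif1* and *Eif5* were higher (log2 1.93 and 1.63), whereas the scaffold *Eif4g1* and the eIF3 subunits *Eif3b* and *Eif3c* were lower (log2 -1.26, -0.91 and -1.04).

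Ribosome assembly factors counted 6 of 46 higher and 8 lower (1 and 33 on uncentred TPM). On counts these were 13.0% and 17.4%, both under the 26.5% and 22.6% of all genes tested. Only 3 were higher without QSCs library 3 or MyoD-tdTomato low library 1, and 5 lower without MyoD-tdTomato low library 2 or 3. *Nop58*, a core protein of small nucleolar particles, was higher at 622, 534 and 583 against 133, 168 and 155 CPM and the assembly factor *Bop1* lower at 58.6, 27.1 and 48.05 against 159, 171 and 165 CPM, each without overlap (log2 1.93 and -1.87). Of 39 proteasome and chaperonin genes, 21 were called lower in QSCs (median -0.65), with the regulatory subunit *Psmd2* at 149, 156 and 130.1 against 436, 474 and 456 CPM (log2 ratio -1.65 ± 0.10 SE, adjusted p = 2.46e-07). Splicing factors counted 23 higher and 7 lower of 57, which turned to 5 and 28 on uncentred TPM. *Srsf5*, a serine- and arginine-rich factor, was at 1064, 847 and 977 against 203, 192 and 199 CPM and *Rbm39* at 705, 609.7 and 854 against 179, 188 and 185 CPM. The nearest libraries lay 4.16-fold and 3.24-fold apart, while the U2 component *Sf3a1* was lower at 49.2 ± 7.91 against 145 ± 7.57 CPM (log2 2.28, 1.98 and -1.56).

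Mitochondrial RNA and the nuclear genes of respiration differed in opposite directions. All 13 mitochondrially encoded genes were called higher in QSCs (median 2.27), and they took 13.6, 11.4 and 19.004% of counts in QSCs against 4.61, 3.92 and 4.33% in MyoD-tdTomato low cells. Nuclear genes of oxidative phosphorylation were called lower in QSCs for 25 of 46 (median -0.68), and those of the TCA cycle for 16 of 27 (median -0.92). The ATP synthase subunit *Atp5b* was at 872, 842 and 872 against 2017, 1875 and 1919 CPM (log2 ratio -1.17 ± 0.098 SE, adjusted p = 2.63e-06), the complex III subunit *Uqcrc1* at 126 ± 25.8 against 386 ± 26.6 CPM and citrate synthase (*Cs*) at 174, 138 and 140.2 against 409, 437 and 433 CPM (log2 ratio -1.497 ± 0.11 SE, adjusted p = 9.82e-07). The encoded subunit *mt-Co1* of complex IV stood opposite, at 45927, 32988 and 59156 against 11573, 9389.7 and 10314 CPM (log2 ratio 2.14 ± 0.21 SE, adjusted p = 7.33e-06).

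Glycolysis genes lay on both sides. Of 25 genes tested, 7 were called higher and 11 lower. Hexokinase 2 (*Hk2*), which traps glucose, was higher at 273, 182 and 215 against 33.7, 35.4 and 35.4 CPM, and the glucose transporter *Slc2a1* at 97.8 ± 14.6 against 55.6 ± 1.99 CPM (log2 2.68 and 0.82). The monocarboxylate exporter *Slc16a3* was higher at 53.2 ± 9.54 against 10.2 ± 2.02 CPM, and so was *Pdk4*, which keeps pyruvate out of the mitochondria, at 292 ± 57.4 against 107 ± 6.64 CPM. *Pkm*, the gene of pyruvate kinase, was lower at 873, 919.7 and 927 against 4382, 4438 and 4179 CPM, and *Pgk1* and *Ldha* at 225 ± 32.6 against 866 ± 22.6 CPM and 511 ± 23.04 against 1057 ± 23.9 CPM (log2 -2.26, -1.95 and -1.05). The list took 0.331, 0.352 and 0.311% of counts in QSCs and 1.38, 1.45 and 1.36% in MyoD-tdTomato low cells.

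Lipid synthesis genes lay on both sides, more of them higher in QSCs on counts but not on uncentred TPM. Of 34 genes of cholesterol and fatty acid synthesis, 17 were called higher and 5 lower in QSCs, and 10 and 13 on uncentred TPM; 8 were lower without QSCs library 2. The sterol genes *Hmgcs1* (named after its values were seen) and *Idi1* were at 223 ± 8.52 against 52.7 ± 4.32 CPM and 259 ± 53.02 against 37.2 ± 4.97 CPM (log2 2.08 and 2.80). *Insig1*, which restrains the pathway and is one of its targets, was at 318, 264 and 361 against 31.1, 38.3 and 35.4 CPM, the nearest libraries being 6.90-fold apart (log2 ratio 3.17 ± 0.17 SE, adjusted p = 1.21e-07). Lower in QSCs, the desaturases *Scd2* and *Fads1* and malic enzyme (*Me1*), a source of NADPH, were at 119 ± 14.5 against 384 ± 25.7 CPM, 32.2 ± 1.49 against 82.6 ± 7.35 CPM and 12.7 ± 9.77 against 81.2 ± 7.47 CPM (log2 -1.69, -1.36 and -2.75). Lipoprotein lipase (*Lpl*) was higher in QSCs at 177 ± 20.5 against 44.2 ± 13.9 CPM; the carriers *Fabp4* and *Fabp5* were higher and lower (log2 5.61 and -2.57), *Fabp4* being an endothelial marker as well.

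Lysosome and autophagy genes counted 17 higher and 4 lower of 43, and 6 and 18 on uncentred TPM. The autophagy receptor p62 (*Sqstm1*) was at 1778, 1343 and 1690.3 against 721, 718 and 678 CPM and the membrane protein *Lamp2* at 448 ± 15.7 against 166 ± 5.16 CPM (log2 1.18 and 1.44). The proteases cathepsin L (*Ctsl*) and cathepsin D (*Ctsd*) differed in direction, at 549 ± 78.01 against 175 ± 29.97 CPM and 247 ± 37.5 against 537 ± 22.1 CPM (log2 1.65 and -1.12). FoxO targets and ubiquitin ligases were higher for 8 of 18 and lower for 1, against 3 and 6 on uncentred TPM. *Txnip*, which restrains glucose uptake, was at 218, 147 and 187 against 32.7, 12.5 and 14.5 CPM, the ligase *Fbxo30* at 177 ± 6.37 against 27.1 ± 2.67 CPM and the insulin receptor substrate *Irs2* at 363, 233 and 333 against 39.1, 29.5 and 38.2 CPM. Their log2 fold changes were 3.21, 2.71 and 3.12.

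**Figure D5:**
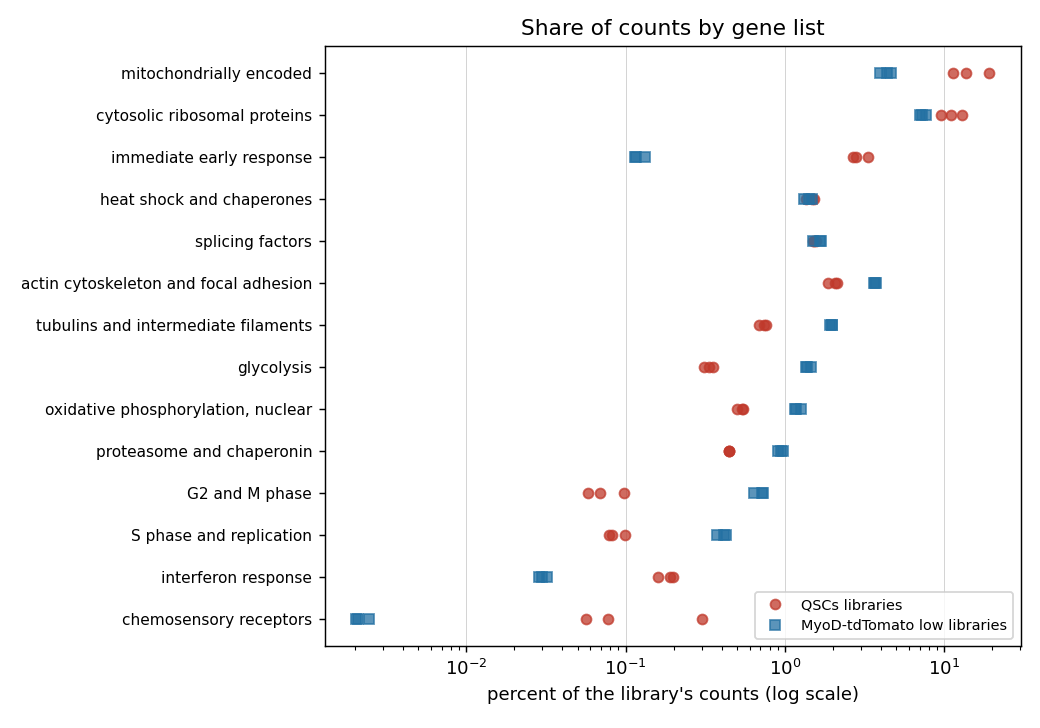
Percent of each library's counts, on a log axis, taken by 14 gene lists in the 3 QSCs (red circles) and 3 MyoD-tdTomato low libraries (blue squares). Mitochondrially encoded, ribosomal protein, immediate early and interferon genes take more of QSCs libraries, cell cycle, glycolysis, cytoskeleton and proteasome genes less, and heat shock genes and splicing factors overlap; the receptor background at the bottom sets QSCs library 2 apart at 0.300%.

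More cytoskeleton genes were called lower than higher in QSCs. Of 50 genes of actin and focal adhesions, 23 were called lower and 10 higher in QSCs, and of 22 genes of tubulins and intermediate filaments 11 lower and 3 higher. Together with focal adhesion genes, actin genes took 2.05, 2.11 and 1.87% of counts in QSCs and 3.61, 3.70 and 3.68% in MyoD-tdTomato low cells. Vimentin (*Vim*) was at 1524, 1786 and 1701 against 5628, 6023 and 5235 CPM, filamin A (*Flna*) at 618, 600.4 and 522 against 1706, 2038 and 1881 CPM and non-muscle myosin (*Myh9*) at 393, 318 and 359 against 1821, 1637 and 1679.6 CPM. QSCs libraries were below the cultured ones for each (log2 -1.753, -1.69 and -2.26). β-tubulin *Tubb5* at 177, 243 and 224 against 1721, 1839 and 1788 CPM and galectin-1 (*Lgals1*) at 499, 645 and 713 against 3375, 3351 and 3251 CPM were lower as well (log2 -3.06 and -2.42). Muscle filamin (*Flnc*), thymosin β4 (*Tmsb4x*) and transgelin (*Tagln*) were higher in QSCs at 2128 ± 316 against 606 ± 101 CPM, 1009.7 ± 27.4 against 323 ± 19.5 CPM and 313 ± 55.2 against 37.2 ± 4.58 CPM, the last also a pericyte marker. Of 24 targets of YAP and SRF, 5 were called higher, such as *Ccn1* and *Ccn2*, and 9 lower, such as *Axl* (log2 1.05, 0.996 and -1.41). Their shares were 20.8% and 37.5%, beside 26.5% and 22.6% of all genes tested.

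Of 28 collagens, 9 were called higher and 8 lower in QSCs, and 6 and 11 on uncentred TPM; of all genes tested, 26.5% were called higher and 22.6% lower. The lower collagens numbered 5 without QSCs library 2 or 3 or MyoD-tdTomato low library 3, and 4 without MyoD-tdTomato low library 1. *Col15a1*, a basement membrane collagen, was at 206, 216 and 139 against 2.38, 2.45 and 3.30 CPM, and *Col1a1*, of fibrils, at 288, 312 and 269 against 27.6, 20.5 and 39.4 CPM. Both were higher in QSCs (log2 ratio 6.10 ± 0.29 SE, adjusted p = 6.53e-08 and log2 ratio 3.31 ± 0.27 SE, adjusted p = 1.91e-06), with fibroblast markers higher beside them. Lower were *Col18a1* at 77.6, 108 and 79.9 against 444, 492 and 518 CPM, *Col5a2* at 227 ± 21.2 against 669 ± 52.5 CPM and *Col12a1* at 64.8 ± 11.9 against 244 ± 58.1 CPM (log2 -2.46, -1.56 and -1.92). Of 49 glycoproteins and proteoglycans, 16 were called higher and 19 lower.

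Laminin chains were among them. *Lama2*, the α2 chain of muscle basement membrane, was higher at 311, 267 and 249 against 127, 68.2 and 92.7 CPM and *Lamb1* lower at 41.3, 64.3 and 47.1 against 275, 320.2 and 280.1 CPM. Neither pair overlapped (log2 ratio 1.52 ± 0.23 SE, adjusted p = 1.99e-04 and log2 ratio -2.53 ± 0.20 SE, adjusted p = 1.69e-06). *Tnxb* was at 649.8, 539.9 and 506 against 0.213, 0.675 and 0.135 CPM and *Ltbp4*, which binds latent TGF-β, at 1570.0, 890.0 and 1498 against 49.5, 40.8 and 43.3 CPM (log2 ratio 4.89 ± 0.220 SE, adjusted p = 4.69e-08). Fibronectin (*Fn1*), osteopontin (*Spp1*), glypican-1 (*Gpc1*) and the collagen chaperone *Serpinh1* were lower at 116 ± 18.8 against 405 ± 27.1 CPM, 139 ± 121 against 828 ± 61.4 CPM, 119 ± 12.9 against 695 ± 95.9 CPM and 338 ± 17.7 against 1239 ± 74.9 CPM (log2 -1.80, -2.58, -2.55 and -1.88). Tendon-type proteins *Thbs4* and *Fmod* were at 159.9, 180.1 and 198 against 0.320, 0.711 and 0.741 CPM and 285, 214 and 212 against 7.89, 1.85 and 5.56 CPM; both are on the tenocyte list. Proteases and inhibitors were called higher for 11 and lower for 11 of 27. The inhibitor *Timp3* was at 494, 349.8 and 316 against 6.18, 7.89 and 10.6 CPM, whereas *Timp1* was lower at 32.3 ± 7.88 against 111 ± 7.35 CPM (log2 5.56 and -1.79).

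Signalling pathways contained members on both sides. Of 21 Notch pathway genes, 10 were called higher and 5 lower, and 4 and 9 on uncentred TPM. The nuclear partner *Rbpj* was higher at 277, 219.6 and 227 against 73.8, 95.3 and 97.4 CPM, while the ligands *Jag2* at 17.04, 9.62 and 17.5 against 145, 170.3 and 175 CPM and *Dll1* at 18.96 ± 5.62 against 45.9 ± 6.03 CPM and the glycosyltransferase *Lfng*, which tunes the receptors, at 2.18, 5.69 and 1.41 against 54.8, 52.1 and 73.3 CPM were lower. None overlapped (log2 1.44, -3.45, -1.29 and -4.42). *Hes6*, a pro-differentiation member of the Hes family, was lower at 50.7 ± 17.7 against 460.0 ± 52.1 CPM, and *Hes1* was not called at 59.6 ± 1.86 against 60.2 ± 1.53 CPM. In the Wnt pathway 4 of 27 were higher and 10 lower: the ligand *Wnt4* was at 38.6, 34.999 and 33.03 against 5.62, 2.10 and 2.96 CPM and the receptor *Fzd2* at 6.27, 13.3 and 3.90 against 87.5, 71.5 and 80.9 CPM, on opposite sides (log2 ratio 3.32 ± 0.35 SE, adjusted p = 1.39e-05 and log2 ratio -3.43 ± 0.33 SE, adjusted p = 7.30e-06). β-catenin (*Ctnnb1*) was lower at 516 ± 61.6 against 1066 ± 21.1 CPM.

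TGF-β and BMP genes counted 15 higher and 8 lower of 40, and 10 and 15 on uncentred TPM. The co-receptor *Tgfbr3* was at 681, 428 and 449 against 12.9, 4.66 and 6.20 CPM (log2 ratio 6.03 ± 0.42 SE, adjusted p = 6.95e-07). *Tgfb1*, the ligand, was lower at 17.2 ± 10.5 against 86.6 ± 4.55 CPM, and the BMP targets *Id1* and *Id2* at 43.2, 60.2 and 68.1 against 279, 295 and 253 CPM and 53.4 ± 4.99 against 109 ± 13.7 CPM (log2 -2.30, -2.27 and -1.03). The transcriptional inhibitor *Skil* was higher at 469 ± 78.95 against 95.9 ± 11.3 CPM (log2 2.29). Of 26 feedback inhibitors of kinase signalling, 14 were called higher and 4 lower. The phosphatases that dampen MAP kinases differed among themselves, *Dusp1* at 532, 418 and 442 against 35.7, 27.9 and 28.1 CPM, *Dusp4* at 9.75, 11.2 and 2.99 against 52.6, 90.01 and 66.2 CPM and *Dusp2* at 1.61 ± 0.513 against 31.1 ± 4.97 CPM. The first was higher and the others were lower in QSCs (log2 3.93, -3.15 and -4.20).

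Growth factors and their receptors were called higher for 15 and lower for 15 of 47 (11 and 22 on uncentred TPM), beside 26.5% and 22.6% of all genes tested. Insulin-like growth factor 2 (*Igf2*) was lower at 301, 362 and 302 against 1866, 871 and 1557 CPM, and the binding protein *Igfbp4* higher at 401, 310.3 and 316 against 19.3, 7.89 and 8.85 CPM (log2 -2.15 and 4.83). The MyoD-tdTomato high cells held 3229, 1999 and 2771 CPM of *Igf2*. *Axl*, a receptor kinase, and its ligand *Gas6* were both lower at 180.0 ± 16.2 against 479 ± 50.9 CPM and 209 ± 35.3 against 572 ± 79.96 CPM. The angiopoietin receptor *Tek*, which endothelium also expresses, was at 121, 89.7 and 76.8 against 0.711, 0.426 and 0.269 CPM (log2 ratio 7.67 ± 0.40 SE, adjusted p = 9.97e-08). Of 55 genes of the primary cilium and Hedgehog signalling, 9 were called higher and 8 lower (5 and 25 on uncentred TPM). Without QSCs library 2, 15 were higher. The shares on counts, 16.4% and 14.5%, were under those of all genes tested. The ciliary GTPase *Arl13b* was at 135, 122 and 132 against 12.5, 13.3 and 15.7 CPM and the Hedgehog effector *Gli2* at 81.9, 46.8 and 46.8 against 5.33, 4.90 and 6.36 CPM, both higher in QSCs, with *Gli3* lower at 19.6 ± 3.92 against 45.7 ± 0.992 CPM (log2 3.23, 3.40 and -1.23).

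Genes seen in 1 group only were outside the fit. Of the 13041 genes left out because some library held no count, 5136 had none in any of the 9. Predicted genes, pseudogenes, mitochondrially encoded genes and odorant, vomeronasal and taste receptor genes were set aside for the next counts. Of the rest, 103 had 0 counts in every MyoD-tdTomato low library and at least 1 CPM in each QSCs library, and 12 the reverse. For a gene with 4 kb of exon, the receptor background was 0.481, 2.28 and 0.701 CPM in QSCs. In MyoD-tdTomato low cells it was at most 0.0151 CPM. The cut of 1 CPM was thus near the background in QSCs only, and the numbers 103 and 12 do not compare like with like. Besides haemoglobin, the first set held the secreted protein *Retnla* at 41.8, 19.8 and 22.2 CPM, at least 867-fold higher in QSCs, and the carboxypeptidase-like gene *Cpxm2* at 18.1, 25.2 and 18.7 CPM, at least 567-fold higher. These bounds set the empty group to 3 counts over its 3 libraries, on the TMM-scaled library sizes. *Lrg1*, a secreted glycoprotein, was at 21.7, 9.62 and 11.9 CPM. *Ahsg*, *Keg1* and *Duxf3* were in the set too, but QSCs library 2 held most of each, at 6.95, 36.3 and 2.49, 8.73, 38.6 and 8.46 and 4.98, 34.3 and 6.89 CPM. The reverse set held the centromere protein *Oip5* at 4.37, 6.68 and 5.05 CPM in MyoD-tdTomato low cells, at least 60.01-fold higher, *Arxes1* at 6.01, 2.06 and 4.01 CPM, at least 45.04-fold higher, and thymidine phosphorylase (*Tymp*) at 3.02, 3.45 and 2.12 CPM, at least 31.9-fold higher.

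Most genes that separated QSCs from MyoD-tdTomato low cells were not called between the cultured groups. Of the 3343 genes higher in QSCs, 3118 were not called there. Another 95 were higher in MyoD-tdTomato low than in high cells, and 130 were lower. For the 2848 genes lower in QSCs, these numbers were 2698, 15 and 135. The share of all genes tested that was not called between the cultured groups was not worked out. These numbers therefore do not set the genes that separated QSCs apart from genes at large. The spread was estimated over all 9 libraries, the noisier QSCs libraries among them, and a gene not called may still differ. *Timp3*, *Col15a1*, *Notch3* and *Egfr* below were among the 95, and *Myog* among the 135. Both contrasts use the MyoD-tdTomato low libraries, so their values are given side by side with no test of their relation. A pairing of MyoD-tdTomato low with high libraries from the same cultures was neither checked nor modelled in the second contrast. *Timp3*, one of the genes higher in QSCs, was at 1.76, 1.89 and 1.10 CPM in MyoD-tdTomato high cells, below the MyoD-tdTomato low cells (log2 ratio 2.37 ± 0.28 SE, adjusted p = 0.00131, MyoD-tdTomato low over high). The values of *Col15a1* were 0.156, 0.0350 and 0.314 CPM in MyoD-tdTomato high cells (log2 ratio 4.005 ± 0.43 SE, adjusted p = 0.00131). For *Notch3* the second contrast gave log2 ratio 1.12 ± 0.224 SE, adjusted p = 0.00954, and for *Egfr* log2 ratio 1.503 ± 0.20 SE, adjusted p = 0.00172, again with MyoD-tdTomato low cells above. *Myog* was opposite, lowest in QSCs and highest in MyoD-tdTomato high cells (log2 ratio -2.91 ± 0.39 SE, adjusted p = 0.00172, MyoD-tdTomato low over high).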

How the data were processed

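Poly(A) RNA of 9 libraries (3 groups of 3) was sequenced by the authors on a NextSeq 500 as paired ends of 36 bases and mapped with CLC Genomics Workbench 20.0.3 at default settings. The genome build named in the submitters' processing notes is GRCm39; the gene annotation and the use of strand are not given in the sources used here. The deposited table holds, for each gene and library, the authors' total count (whole reads, not normalized), TPM and RPKM. The counts were tested as deposited, TPM entered an alternative, and the deposited RPKM served only to recover mapped totals. The 9 CPM columns and 24 columns with the authors' fold changes and p-values were not used.

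Genes with a 0 in any library were left out (12614 of 25655 remained). edgeR 4.0.16 (R 4.3.3) fitted 1 coefficient per group over all 9 libraries, with TMM factors and robust quasi-likelihood; the contrast was QSCs minus MyoD-tdTomato low. Benjamini-Hochberg adjustment ran over all genes tested, and a gene was called past 1.5-fold with an adjusted p under 0.01. CPM used TMM-scaled library sizes. Alternatives were other normalizations, filters, thresholds, a replicate block, DESeq2 1.42.0, limma 3.58.1 on log2(TPM + 1) and log2(TPM + 0.1), and each library left out. Fold changes on these log scales understate those of low genes. Gene totals ran from 7514633 to 25767904 counts in the libraries compared. On simulated data with 200 of 12614 genes changed, 41% of 2-fold and 72% of 4-fold changes were called, with 2 unchanged genes. These changes were few and equally often up and down, whereas 6191 genes were called in the data. The simulated rates are therefore no estimate for this comparison. No 2 replicates agreed within sampling noise: the chi-square per gene between replicates was at least 15.0.

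The members and lists were chosen with earlier results of these data known. The ranking by size of change and the genes seen in 1 group only left out predicted genes, pseudogenes and mitochondrially encoded genes. Odorant, vomeronasal and taste receptor genes were left out there too. Named genes were all members of the identity lists, the 15 largest called changes in each direction above 30 CPM without overlap, up to 5 called members per list and direction by mean CPM, up to 8 genes per direction left out for 0 counts in 1 group, the 10 most abundant genes, and genes the study names; any other is said to have been chosen after its values were seen. Promoters came from RefSeq tables on GRCm38.p6, matched by symbol for 1252 of 1646 listed genes, and coordinates of genes from the deposited table on GRCm39. The shares of counts were compared by an exact two-sided permutation test over libraries.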

Additional observations from a re-analysis of the deposited data

How the results depend on the processing

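Under every alternative on counts (RLE or upper-quartile factors, TMM without mitochondrial and immediate early genes, DESeq2, both other filters, the 6 libraries alone, both other thresholds), the numbers of genes called higher and lower stayed within 1.5 times of 3343 and 2848, between 2725 and 4067 higher and between 2042 and 3436 lower. On uncentred TPM they did not: limma called 1579 higher and 6013 lower on log2(TPM + 1), and 1616 and 5947 on log2(TPM + 0.1). All 1579 were also called higher on counts, and all 2848 called lower on counts were lower there. Leaving out each library in turn gave 2800 to 3548 higher and 2459 to 3097 lower. Replicate numbers did not pair QSCs with MyoD-tdTomato low libraries, whose same-numbered deviations correlated at 0.0031, -0.0031 and -0.046, and the replicate block gave 3208 higher and 2841 lower. An alternative chosen after seeing the data, which centred TPM on each library's median gene, gave 3868 and 2898, and another, which subtracted the receptor background per kb of exon, 3028 and 2639.

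Of the values for named genes and for shares of counts, 6 turned sign, counting a gene only where it was called in at least 1 of the settings: *Clock* (-0.71 and -0.75) and *Myod1* (-0.76 and -0.76) on uncentred TPM at the larger and smaller pseudocount, neither called on counts, the share of heat shock genes taken on TPM (-0.280 percentage points, QSCs minus MyoD-tdTomato low) and the share of splicing factors without mitochondrial counts (0.108 points). *Arntl*, *Cdkn2d*, *Nfix* and *Notch1* turned sign on uncentred TPM with no call in either, and *Clock*, *Hes1*, *Myod1* and *Rb1*, near 0 on counts, did so uncalled under some count settings. Of 37 list medians above 0 on counts, 13 were below 0 on log2(TPM + 1), among them those of cholesterol synthesis, lysosome, splicing, Notch, TGF-β and BMP, heat shock, unfolded protein response and cilium genes. The cause was not tested. Depth limits QSCs library 2 most, with 7514633 gene counts, and low genes in QSCs lie near the receptor background.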
